A study of Mus musculus with 9 samples.

Results

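St6gal1 and Cmah are the 2 genes of sialic acid metabolism on a probe panel of 770 immune genes, and they were chosen by name, after an earlier reading of these data had found both lower in gut than in lymph node T cells. The panel was read in T cells of mice on the B10.RIII background, a strain that develops experimental autoimmune uveitis, an inflammation of the retina driven by T cells. The 9 samples were CD4CD8, CD8 and CD4 cells of the intraepithelial compartment of the gut, and CD8 and CD4 cells of the small-intestinal lamina propria, of the mesenteric lymph nodes and of the peripheral lymph nodes, with 1 sample each and no replicates. The labels of all samples name wild-type mice or Rag2-/- IRBP-/- R161H mice, immunization with the retinal peptide IRBP161-180 in complete Freund's adjuvant, and a gel with ampicillin, metronidazole, neomycin, vancomycin and gentamicin, given to wild-type mice for a short or a long time before immunization. They do not say which genotype or antibiotic arm any sample came from, its age, or whether it was 1 animal or a pool, so only tissues and subsets are compared.

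Sialic acids are acidic sugars that end many of the glycans on a cell's surface. St6gal1 encodes a Golgi sialyltransferase that adds sialic acid to the galactose of N-linked glycans in an alpha linkage. Its product is the ligand of the B cell lectin CD22 and hinders the binding of galectins. Cmah encodes the hydroxylase that turns the nucleotide-linked N-acetyl form of sialic acid into the N-glycolyl form. This enzyme is active in mice and lost in humans, and in mice it sets which of the forms CD22 and other sialic acid-binding receptors meet on lymphocytes.

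In the RefSeq annotation of the mouse assembly GRCm38.p6, St6gal1 (gene ID 20440) lies at chr16:23224729-23360350 and Cmah (gene ID 12763) at chr13:24327404-24477289, both protein-coding. RefSeq's table of start sites held 3 windows for St6gal1 and 2 for Cmah, and the deposited table does not say which transcripts a probe pair reads. The 250 bases before the first start of each gene are shown, since the level of both genes differed between the same tissues. The St6gal1 window comes from the start-site table, whose first start lies just inside the annotated gene span. Both windows are on the plus strand, 5′ to 3′, at chr16:23224490-23224739 and chr13:24327154-24327403. Capitals mark the letters CTTTGAT, a core of sites of the TCF/LEF factors, and CACCC, a core of KLF sites, on either strand.
St6gal1: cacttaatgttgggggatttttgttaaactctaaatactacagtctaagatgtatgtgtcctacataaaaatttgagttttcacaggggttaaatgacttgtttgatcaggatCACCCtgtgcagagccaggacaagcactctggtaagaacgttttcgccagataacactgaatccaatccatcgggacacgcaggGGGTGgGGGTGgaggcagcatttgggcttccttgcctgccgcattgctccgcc
Cmah: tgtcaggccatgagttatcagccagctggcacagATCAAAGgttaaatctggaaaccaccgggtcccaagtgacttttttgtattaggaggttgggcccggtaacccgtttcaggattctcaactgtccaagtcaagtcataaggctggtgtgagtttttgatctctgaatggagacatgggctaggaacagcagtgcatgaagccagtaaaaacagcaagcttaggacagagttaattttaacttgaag
The Cmah window held 1 match to CTTTGAT, which begins 216 bases before the start, and none to CACCC. The St6gal1 window held 3 matches to CACCC and none to CTTTGAT. Among 32851 windows of the same length, 3.21% held CTTTGAT and 52.0% held CACCC. The other windows differed: the second Cmah window held 2 matches to CACCC, and the further St6gal1 windows held 3 and 1, with no CTTTGAT in any of them. The letters TGTGGT (RUNX) and GTAAACA (FOXO), present in 14.0% and 3.17% of windows, were in none of the 5 windows. The motifs were picked after the windows had been read, and a match describes letters only.

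Values are log2 normalized counts as deposited, with a floor of 4.32 (log2 of 20) in every sample. A gene at the floor is known only to lie under the lowest value that its sample lists above the floor, which is called the sample's limit here. In the intraepithelial compartment the limit was 5.52 for CD4CD8, 5.05 for CD8 and 6.30 for CD4. It was 5.59 for CD8 of the lamina propria and between 4.34 and 4.38 for the other 5 samples. Between 336 and 474 genes lay above the floor in a sample, and the mean of 20 housekeeping genes was between 7.64 and 7.88. In the 4 samples with high limits the low values fell on whole multiples of 1 step, and the limit equalled 20 counts in each. Cd4 and Cd8a followed the labels. Cd4 was above the floor in the CD4CD8 and CD4 samples only, and Cd8a in the CD4CD8 and CD8 samples only. Cd40lg, the other CD4 marker, was 8.01 to 9.37 in the samples with Cd4. It was also above the floor in lamina propria CD8 (6.08) and peripheral CD8 (4.72). Cd3e, a chain of the T cell receptor complex, was 9.63 to 11.64 in all 9, while the T cell marker Cd2 was at the floor in the CD4CD8 sample. Cd8b1, the beta chain of CD8, was at the floor in the CD4CD8 sample.

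St6gal1 was at the floor in all 3 intraepithelial samples, below 5.52 in CD4CD8, below 5.05 in CD8 and below 6.30 in CD4. In the lamina propria it was 5.79 in CD8 and 6.71 in CD4. In the mesenteric nodes it was 6.90 in CD8 and 7.88 in CD4, and in the peripheral nodes 7.28 in CD8 and 8.18 in CD4. Within each subset the order was therefore the same, with intraepithelial lowest, then lamina propria, mesenteric and peripheral node highest. The lamina propria CD8 value stood for 23 counts, with an exact Poisson 95% interval of 14.6 to 34.5 counts, or 5.14 to 6.38 on the log2 scale (counting error only). That interval reaches below the sample's own limit of 5.59.

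Cmah was at the floor in the intraepithelial CD4CD8 sample (below 5.52) and in the intraepithelial CD8 sample (below 5.05). In intraepithelial CD4 it was listed at 6.30, which is that sample's limit and stands for 20 counts (exact Poisson 95% interval 12.2 to 30.9 counts, or 5.59 to 6.93 on the log2 scale). In the lamina propria it was 8.81 in CD8, from 186 counts (160 to 215), and 7.73 in CD4. In the mesenteric nodes it was 9.49 in CD8 and 9.06 in CD4, and in the peripheral nodes 9.61 in CD8 and 8.96 in CD4. The intraepithelial samples were lowest and the 4 node samples highest. Lower levels in gut than in node are how the gene was chosen, so that part of the order is no finding. The counting interval of lamina propria CD8, 8.59 to 9.02 on the log2 scale, holds the peripheral CD4 value of 8.96. Within CD4 the mesenteric and peripheral values lay 0.10 apart and within CD8 0.12, and their order turned between the subsets.

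**Figure D1:**
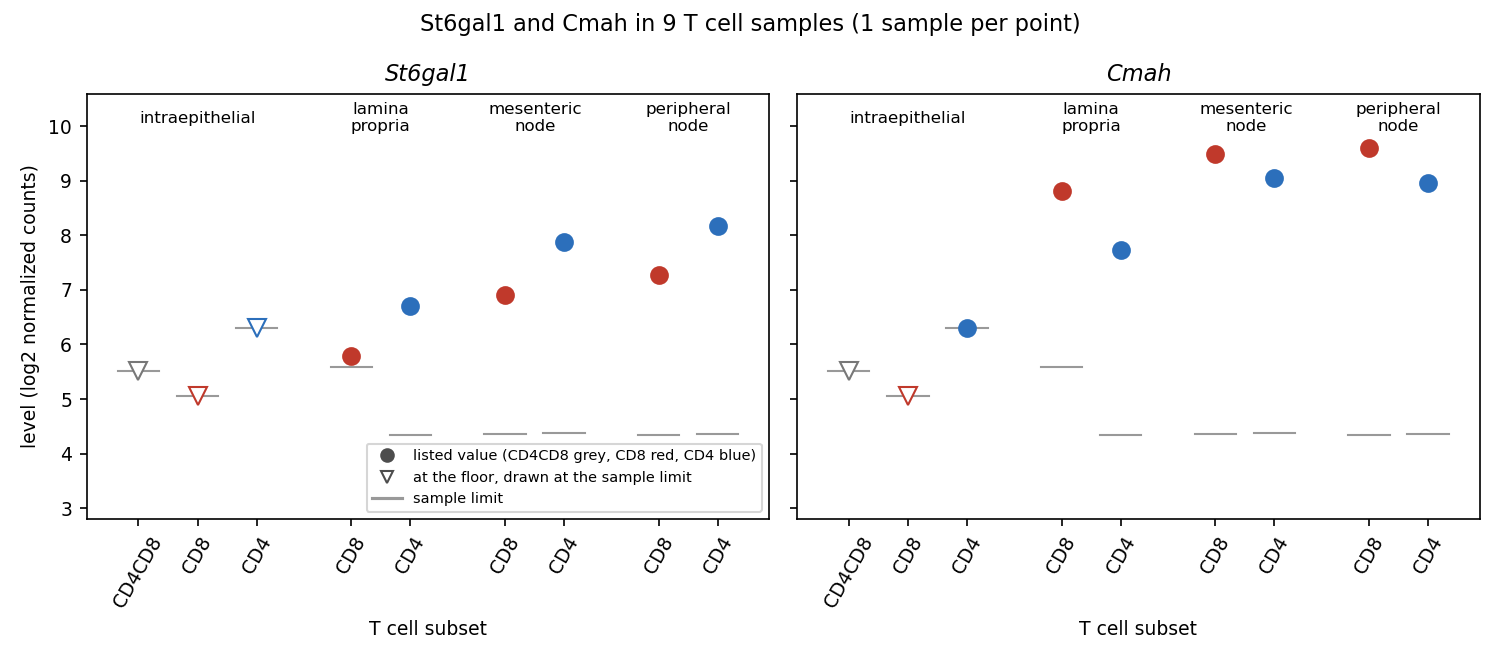
Level of St6gal1 (left) and Cmah (right) in each of the 9 samples, as log2 normalized counts on the vertical axis, with the samples by tissue and subset on the horizontal axis. Filled circles are listed values, open triangles are samples at the floor drawn at their limit, and grey lines are the limits. In lamina propria and nodes the CD8 sample lies below the CD4 sample for St6gal1 and above it for Cmah.

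The difference between CD8 and CD4 samples is a contrast by which the genes had not been chosen. Where both samples were above the floor, the 2 genes differed in opposite directions. St6gal1 was lower in CD8 in the lamina propria (log2 difference -0.92), the mesenteric nodes (-0.98) and the peripheral nodes (-0.90), which are 1.89-fold, 1.97-fold and 1.87-fold lower levels. Cmah was higher in CD8 by 1.08, 0.43 and 0.65 in the same tissues, or 2.11-fold, 1.35-fold and 1.57-fold. The mean over the 3 tissues was -0.93 ± 0.04 for St6gal1 and 0.72 ± 0.33 for Cmah (SD over 3 tissues, 1 pair each).

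Neither difference passed the test over all 4 tissues. With limma on 8 samples and values at the floor kept at 4.32, St6gal1 had a difference of -0.70 ± 0.24 (SE of the fit; 95% interval -1.32 to -0.08; adjusted p = 0.126) and Cmah one of 0.05 ± 0.54 (-1.36 to 1.45; adjusted p = 0.949). Of the 433 tested genes, 14.8% were called in this comparison, 5.54% as higher and 9.24% as lower in CD8. The intraepithelial pair enters this fit as a difference of 0 for St6gal1, because both samples were at the floor. Without that pair, both genes passed, with -0.93 ± 0.11 for St6gal1 (adjusted p = 0.017) and 0.72 ± 0.15 for Cmah (adjusted p = 0.047). St6gal1 also passed with samples at the floor taken at their limits (-1.01 ± 0.14, adjusted p = 0.00698), a setting in which the intraepithelial pair contributes the gap between 2 limits and no measurement. When each sample was centred on its median, which put the median over tested genes at 0.13, against -0.14 without centring, the St6gal1 difference was -0.43 (adjusted p = 0.318) and the Cmah difference 0.32 (adjusted p = 0.716). Without the intraepithelial pair and with this centring the values were -0.71 (adjusted p = 0.0449) and 0.94 (adjusted p = 0.0647).

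The 3 St6gal1 differences spanned 0.08 on the log2 scale. Of 279 genes above the floor in all 6 lamina propria and node samples, 13 (St6gal1 among them) had a span of 0.08 or less, and the median span was 0.42. The Cmah span was 0.65. For St6gal1, counting error alone put the lamina propria CD8 value between 5.14 and 6.38, a range wider than its span. Neither that span nor the SE of the fit without the intraepithelial pair takes this interval in, so both can be too small. Of the same 279 genes, 46.6% were lower in CD8 in all 3 tissues, as St6gal1 was, and 20.4% were higher in all 3, as Cmah was. The median of their mean differences was -0.15. St6gal1 was 1 of the 18 genes with the lowest mean difference, and Cmah 1 of the 23 with the highest.

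In the intraepithelial compartment Cmah ran the other way. The CD8 sample was below 5.05 and the CD4 sample at 6.30, so CD8 was at least 2.38-fold lower (log2 difference at or below -1.25), against higher CD8 values in the other 3 tissues. The CD4 level rests on 20 counts, with an interval whose lower end is 5.59, and the CD8 limit has a counting error of its own that the bound leaves out. For St6gal1 the intraepithelial pair gave no difference, since both samples were at the floor. The fit with an added term for the CD8 minus CD4 difference in gut minus the same difference in node gave -0.99 ± 1.10 for Cmah (adjusted p = 0.716) and 0.48 ± 0.43 for St6gal1 (adjusted p = 0.635), where 1.39% of tested genes were called. That term averages the lamina propria and intraepithelial pairs, which for Cmah lay on opposite sides of 0.

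**Figure D2:**
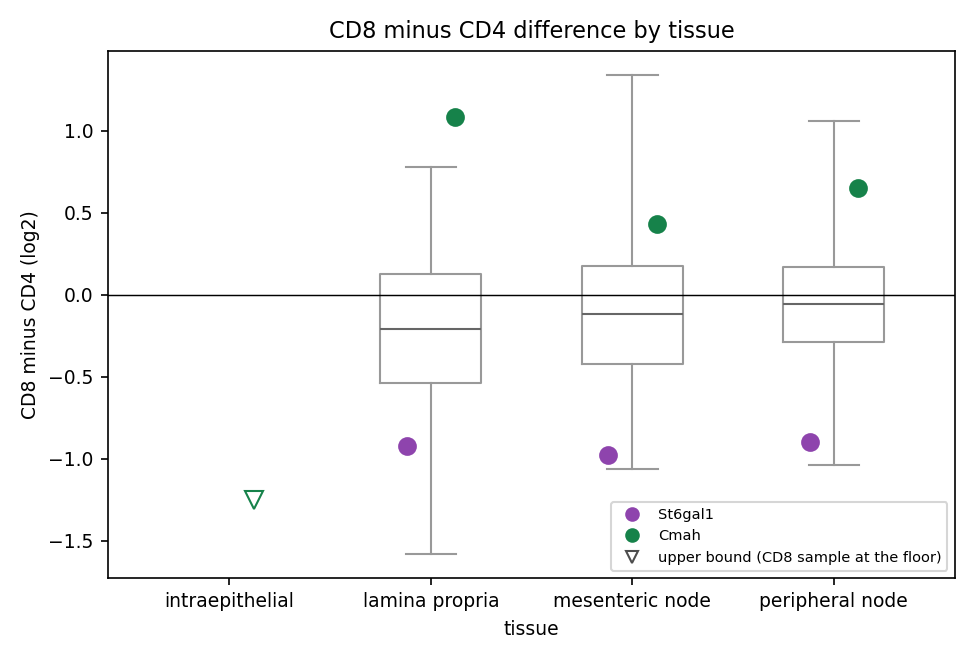
CD8 minus CD4 difference (log2, vertical axis) of St6gal1 and Cmah in each tissue (horizontal axis), from 1 pair of samples each. Boxes show the 279 genes above the floor in all 6 lamina propria and node samples (line, median; box, quartiles; whiskers, 5th to 95th percentile), and the open triangle is an upper bound for Cmah, whose intraepithelial CD8 sample was at the floor. St6gal1 lies between -0.98 and -0.90 and Cmah between 0.43 and 1.08 in the 3 tissues where both samples were above the floor.

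A further comparison divided the gut into intraepithelial and lamina propria samples. Both genes were lower in the intraepithelial compartment. For Cmah the CD8 samples differed at least 13.5-fold (below 5.05 intraepithelial, 8.81 lamina propria) and the CD4 samples 2.69-fold (6.30 intraepithelial, 7.73 lamina propria). For St6gal1 only bounds could be had, at least 1.67-fold lower in intraepithelial CD8 and at least 1.33-fold lower in intraepithelial CD4, so the sizes of the drop in the 2 genes cannot be ranked. The fit gave -1.93 ± 0.34 for St6gal1 (adjusted p = 0.0201) and -2.96 ± 0.77 for Cmah (adjusted p = 0.0535), where 22.2% of tested genes were called, 9.7% of tested genes as lower. The St6gal1 value uses the floor for both intraepithelial samples, and the call was lost at the limits (-0.58, adjusted p = 0.108). At the limits Cmah passed (-2.60 ± 0.53, adjusted p = 0.0245). In bulk samples, fewer cells that express a gene and less RNA per cell cannot be told apart.

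The lamina propria samples also carried epithelial transcripts. The 6 measured epithelial markers summed to 5687 normalized counts in lamina propria CD8 and 6894 in lamina propria CD4, against 176, 573 and 98 in intraepithelial CD4CD8, CD8 and CD4 and at most 43 in the nodes. Cdh1, which encodes E-cadherin, was the one marker above the floor in the nodes, at 5.41 in mesenteric CD8 and 5.38 in peripheral CD8, and was 8.95 in intraepithelial CD8. Of 12 measured myeloid markers, the sum was 505 in lamina propria CD8 and 836 in lamina propria CD4, 43 to 264 in the intraepithelial samples and 25 to 79 in the nodes. Of the 12, 7 were at the floor in all 9 samples. Lyz2 was the only 1 above the floor in lamina propria CD8 (8.98) and the highest in lamina propria CD4 (9.52). It was at the floor in the intraepithelial samples, whose sums came from other markers. The part of epithelial and myeloid cells in the lamina propria levels of St6gal1 and Cmah was not tested.

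Against the nodes, the levels chose the genes, so the values are a description. The lamina propria minus the mean of both nodes (log2) was -1.30 in CD8 and -1.32 in CD4 for St6gal1, and -0.74 in CD8 and -1.28 in CD4 for Cmah. The St6gal1 difference was thus nearly the same in both subsets. Intraepithelial CD8 was at least 21.7-fold below mesenteric and 23.6-fold below peripheral CD8 for Cmah, and at least 3.61-fold and 4.69-fold below them for St6gal1. Intraepithelial CD4 was 6.77-fold below mesenteric and 6.32-fold below peripheral CD4 for Cmah, and at least 2.99-fold and 3.68-fold below them for St6gal1. Over all gut and node samples the fitted differences were -2.27 for St6gal1 and -2.49 for Cmah, and 28.9% of the tested genes were called between gut and node. Without the intraepithelial pair the differences were -1.31 and -1.01, and the median difference of all tested genes was -0.04. General T cell genes were also lower in lamina propria than in nodes. The 6 T cell markers lay between -0.285 (Cd5) and -0.74 (Cd247), averaged over CD8 and CD4. How far the drop of St6gal1 and Cmah in the lamina propria went with that of these markers was not tested.

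The nodes themselves differed little. St6gal1 was lower in mesenteric than in peripheral nodes by 0.38 in CD8 and 0.30 in CD4, and the fit gave -0.34 ± 0.34 (95% interval -1.22 to 0.54; adjusted p = 1). Cmah gave -0.01 ± 0.77 (-2 to 1.98; adjusted p = 1), an interval that also holds changes of the size seen between lamina propria and nodes. With limma, 0 of the 433 genes were called in this comparison (0%), and 20 had an unadjusted p under 0.05.

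**Figure D3:**
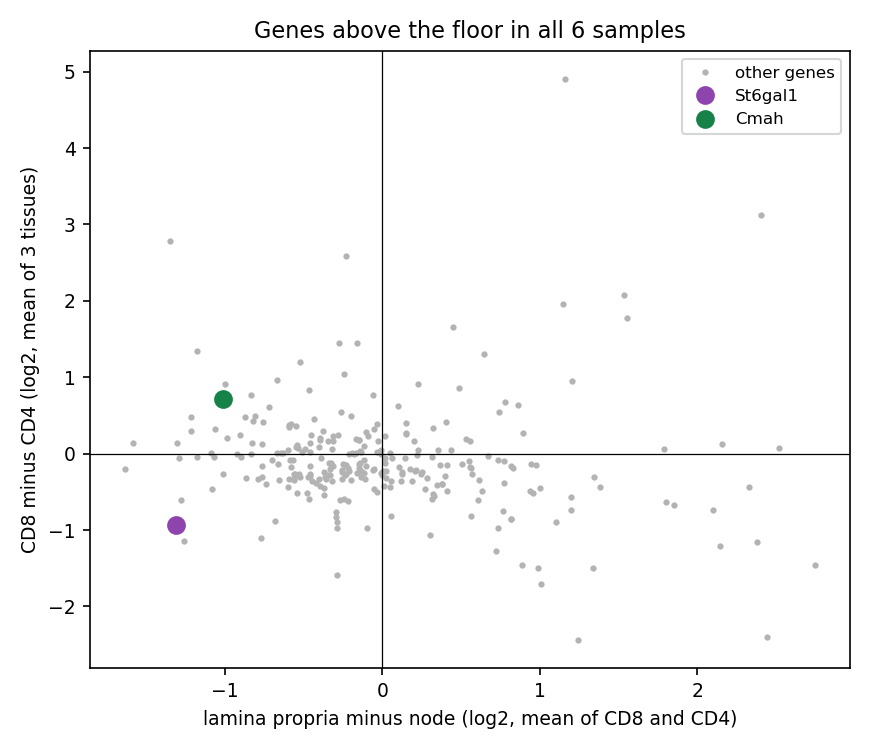
Each point is 1 of the 279 genes above the floor in all 6 lamina propria and node samples, with the lamina propria minus node difference (log2, mean of CD8 and CD4) on the horizontal axis and the CD8 minus CD4 difference (log2, mean of 3 tissues) on the vertical axis. St6gal1 (-1.31, -0.93) and Cmah (-1.01, 0.72) lie on the left on opposite sides of the horizontal line at 0.

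Other genes were ranked by Pearson's r with each of the 2 genes over the 9 samples, with samples at the floor taken at their limits, among 359 genes above the floor in at least 5 samples. The samples fall into tissues and share their scaling, so r is a description.

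For Cmah, r was 0.97 with Il17ra, 0.97 with Ccr7, 0.95 with F2rl1 and 0.92 with Ly9. Il17ra encodes the receptor of IL-17, Ccr7 the chemokine receptor that guides T cells into lymph nodes, F2rl1 a protease-activated receptor and Ly9 a receptor of the SLAM family. The lowest r with Cmah belonged to Itga1 (-0.95), an integrin chain of tissue-resident T cells, and to the granule proteases Gzmb and Gzma (both -0.94). Gzmb was at the floor in every node sample, Gzma in all but mesenteric CD8 (4.67), and Itga1 in CD4 of both nodes. These r therefore follow the split of gut and node by which Cmah was chosen. Among the intraepithelial samples, Ccr7 was at the floor for CD4CD8, 6.69 for CD8 and 6.37 for CD4. It was 10.48 and 9.63 in lamina propria CD8 and CD4, 11.24 and 10.91 in mesenteric CD8 and CD4, and 11.59 and 11.34 in peripheral CD8 and CD4. Like Cmah, Ccr7 was higher in CD8 in lamina propria and nodes, and unlike Cmah it was listed in intraepithelial CD8. Over the 6 lamina propria and node samples alone, where no limit enters, r with Ccr7 was 0.94. It was 0.88 with Il17ra, 0.84 with Ly9 and 0.73 with F2rl1. Cd3d, a chain of the T cell receptor complex, came first there with 0.98. None of Ccr7, Il17ra, Ly9 and F2rl1 was among the first 5 over these samples.

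St6gal1 was most like Il6ra (0.98), which encodes the IL-6 receptor chain. Il6ra was at the floor in intraepithelial CD4CD8 and CD8 and 6.37 in intraepithelial CD4. It was 6.48 and 7.29 in lamina propria CD8 and CD4, 7.52 and 8.75 in mesenteric CD8 and CD4, and 7.45 and 8.85 in peripheral CD8 and CD4. As with St6gal1, each CD8 value was below its CD4 value in these 3 tissues. Ikbke (0.96), a kinase of innate signalling, Ctss (0.95), the protease cathepsin S, Gpr183 (0.93), an oxysterol receptor that positions lymphocytes, and Mapk14 (0.93), the p38 alpha kinase, followed. The lowest r belonged to Cd160 (-0.97), an NK-type receptor, Ccl3 (-0.96), a chemokine of cytotoxic cells, and Cd7 (-0.94), a surface receptor of the immunoglobulin superfamily. Cd160 and Ccl3 were at the floor in CD4 of both nodes. Of the 5 genes most like St6gal1, 2 stayed among the first 5 with the floor value in place of the limits, and 0 over the 6 samples alone, where Crebbp (0.99) and Tgfb1 (0.98) came first.

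The 2 genes were less like each other than like these genes. Their r was 0.77 over the 9 samples, which put Cmah at rank 38 for St6gal1 and St6gal1 at rank 29 for Cmah. Over the 6 lamina propria and node samples it was 0.27.

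**Figure D4:**
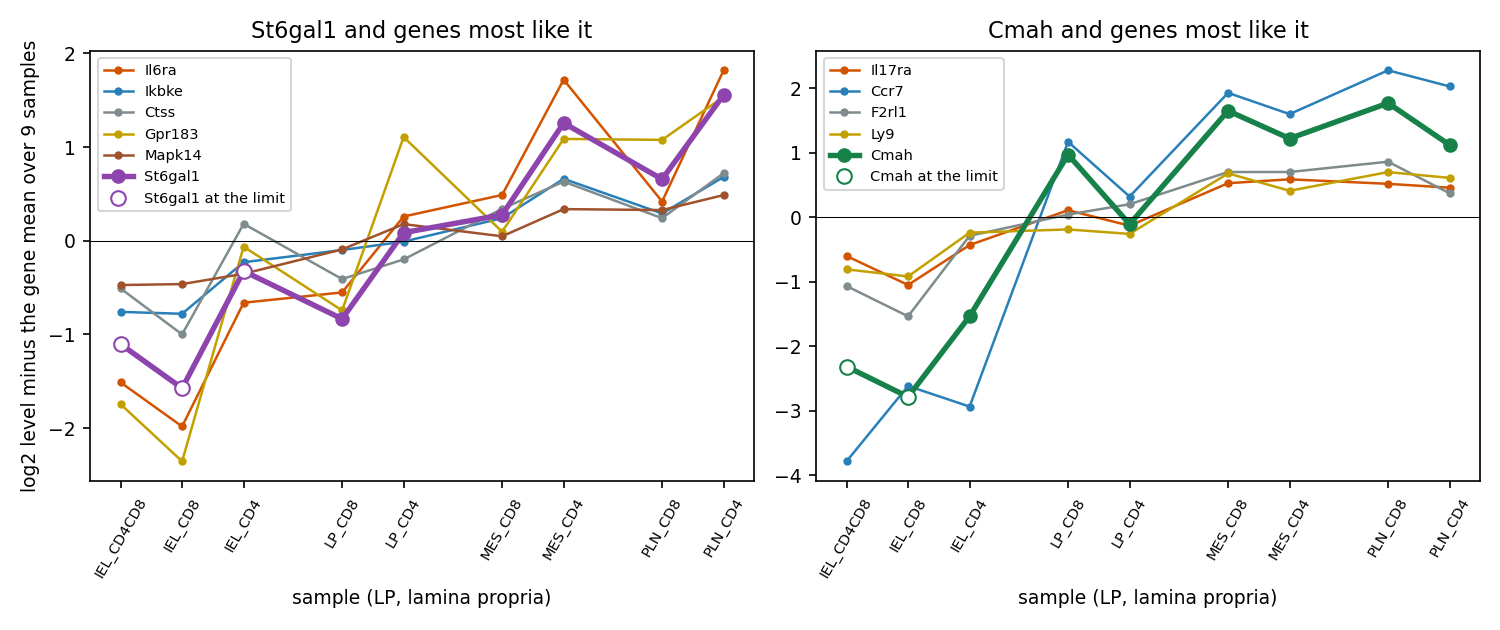
Levels in the 9 samples (log2, minus the gene's mean over the 9 samples, vertical axis) of St6gal1 (left) and Cmah (right) with genes most like each (5 for St6gal1, 4 for Cmah), by sample on the horizontal axis. Samples at the floor are drawn at their limit and marked with open circles for St6gal1 and Cmah, and lines only join the points of 1 gene. The lines of Cmah and its 4 genes lie below 0 in every intraepithelial sample and above 0 in every node sample, while the St6gal1 line zigzags with Il6ra, lower in CD8 than in CD4 within lamina propria and nodes.

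No other gene of a list of 32 sialic acid enzymes and transporters was on the panel, so other sialyltransferases and sialidases were not measured. Fut7, a fucosyltransferase that completes selectin ligands, was at the floor in all 9 samples. The sialic acid-binding receptors Cd22, Cd33 and Siglec1 and the endothelial adhesion receptor Sele were at the floor in every sample.

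Of 15 measured genes of sialylated surface proteins and galectin biology, 10 were tested. Between gut and node 2 rose and 4 fell, where 15.7% of all tested genes were called higher and 13.2% lower, with a list median of 0.05 against 0.04 for all tested genes. Itgb1, the beta-1 integrin chain and a known substrate of the St6gal1 enzyme, fell by 1.18 ± 0.25 (adjusted p = 0.0227). The fall did not hold for every pair of samples, since Itgb1 was 7.90 in lamina propria CD4 and 7.77 in mesenteric CD4. Ptprc, which encodes CD45, had a difference of -0.33 ± 0.08 (adjusted p = 0.042), and Selplg, the P-selectin ligand, one of -0.44 ± 0.08 (adjusted p = 0.0167). The low values of both were those of the lamina propria. Ptprc was 10.97 and 10.9 in lamina propria CD8 and CD4, 11.45 to 11.94 in intraepithelial samples and 11.49 to 11.64 in nodes. Selplg was 9.74 and 9.5 in lamina propria CD8 and CD4, 10.09 to 10.66 in intraepithelial samples and 10.16 to 10.72 in nodes. Lgals3, which encodes galectin-3, rose by 3.22 ± 0.33 (adjusted p = 0.00404), with node values of 5.45 in peripheral CD4 and at the floor elsewhere. Tnfrsf1a, a TNF receptor, rose by 0.60 ± 0.14 (adjusted p = 0.0346), and Pecam1, an adhesion molecule, fell by 0.77 ± 0.14 (adjusted p = 0.016). Spn, the sialylated mucin CD43, had a difference of 0.08 ± 0.08 (adjusted p = 0.433). The other 3 tested members passed in none of the comparisons. Cd164, a sialomucin, was 9.95 to 10.49 in the 9 samples, Fas, a death receptor, 5.71 to 7.22, and Cd99, an adhesion molecule, 5.10 to 6.73 where above the floor. Cd44, Cd34, Glycam1, Muc1 and Havcr2 were at the floor in all 9. When samples were centred on their medians, 1 member rose and 4 fell.

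In intraepithelial against lamina propria samples 3 of the 10 rose, which were Spn (0.89 ± 0.11, adjusted p = 0.00909), Selplg (0.76 ± 0.12, adjusted p = 0.0156) and Ptprc (0.62 ± 0.12, adjusted p = 0.0251), and none fell, where 12.5% of all tested genes were called higher and 9.7% lower. With median centring 2 rose.

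Between CD8 and CD4, 1 of these 10 genes rose and 2 fell, where 5.54% of all tested genes were called higher and 9.24% lower. Selplg rose by 0.46 ± 0.08 (adjusted p = 0.0303). Pecam1, whose sugars carry the St6gal1 product, fell by 0.99 ± 0.14 (adjusted p = 0.0193), and Spn had a difference of -0.35 ± 0.08 (adjusted p = 0.0451). With each sample centred on its median, 2 rose and 1 fell. Pecam1 was 6.15, 6.40 and 7.73 in intraepithelial CD4CD8, CD8 and CD4, 6.7 and 7.79 in lamina propria CD8 and CD4, 7.56 and 8.22 in mesenteric CD8 and CD4, and 7.52 and 8.40 in peripheral CD8 and CD4. Each CD8 value lay below its CD4 value, as for St6gal1 where that was measured. Itgb1, the other gene named here as a St6gal1 substrate, went the other way, with each CD8 value above its CD4 value. Its levels were 7.32 and 7.15 in intraepithelial CD8 and CD4 and 7.97 and 7.90 in lamina propria CD8 and CD4. They were 9.11 and 7.77 in mesenteric CD8 and CD4, and 9.54 and 8.64 in peripheral CD8 and CD4. The fitted Itgb1 difference was 0.62 ± 0.25 (adjusted p = 0.163).

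Genes that mark naive cells or guide them to lymph nodes were mostly lower where St6gal1 and Cmah were low. Of 6 measured members 5 fell in gut against node, with a list median of -1.11, and 4 fell in intraepithelial against lamina propria samples, with a list median of -1.53 and a median of 0 for all tested genes. Of all tested genes, 13.2% were called lower in gut against node and 9.7% lower in intraepithelial against lamina propria samples. The members that fell in gut against node included Ccr7 (-2.98 ± 0.12, adjusted p = 0.0003) and Tcf7 (-1.22 ± 0.09, adjusted p = 0.00212), a TCF/LEF factor of naive and memory cells. Cd27 fell there too but went the other way in intraepithelial against lamina propria samples (0.48 ± 0.16, adjusted p = 0.104). Cxcr4 passed in neither comparison. Of 16 tested genes of activation and tissue residence, 10 rose in gut against node and none fell, where 15.7% of all tested genes were called higher and 13.2% lower. The same counts of called members held in gut against node for both lists with each sample centred on its median. None of the 6 naive genes passed between CD8 and CD4, and 1 was higher in CD8 with median centring.

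Markers of B cells, which express St6gal1 strongly, were also on the panel. Of 12 measured markers 7 were at the floor in all 9 samples, among them Cd79a, Pax5 and Cd22. Cd79b, a chain of the B cell receptor complex, was above the floor in 7 samples. Its level was 7.27 in CD8 of the intraepithelial compartment, 6.48 and 4.97 in lamina propria CD8 and CD4, 6.95 and 5.85 in mesenteric CD8 and CD4, and 6.23 and 4.5 in peripheral CD8 and CD4. It rose in CD8 against CD4 by 1.82 ± 0.36 (adjusted p = 0.0338). Tnfrsf13b went the other way, listed only in CD4 of lamina propria (4.79), mesenteric (5.01) and peripheral nodes (4.97). Blk (4.88) and Blnk (4.84) were listed in lamina propria CD4 only. These lamina propria values lie under the limit of lamina propria CD8 (5.59). Ms4a1 was 4.88 and 4.87 in mesenteric CD8 and CD4, 5.59 in intraepithelial CD4CD8 and at the floor elsewhere. The sum of the markers above the floor was 48, 154 and 0 normalized counts in intraepithelial CD4CD8, CD8 and CD4, and 89 and 117 in lamina propria CD8 and CD4. It was 153 and 119 in mesenteric CD8 and CD4, and 75 and 54 in peripheral CD8 and CD4. The part of B cells in the St6gal1 levels was not tested.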

How the data were processed

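Per the labels' protocols, each transcript was read with a reporter probe that carries a barcode and a capture probe that carries biotin. The deposited table holds log2 values of 770 genes in 9 samples. Not given in the sources used here are the instrument, how samples were scaled and how the floor was set. The members and gene lists were chosen with earlier results of these data known.

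The test was limma (version 3.58.1, R 4.3.3) (lmFit, then eBayes with trend) on the log2 values that the authors deposited for the 8 CD8 and CD4 samples, with additive terms for tissue and subset (3 residual degrees of freedom, 2 for the added term). Genes above the floor in at least 2 samples were tested (433, housekeeping genes left out), with two-sided p-values adjusted by Benjamini-Hochberg over all tested genes at a threshold of 0.05. With no replicates, the residual is how far tissue differences varied with subset. Values at the floor add no spread, so such SEs can be too small. The fit was also run on simulated data with CD8 minus CD4 changes set in and independent noise. Only genes well above the floor were scored there, so tissue contrasts and genes near the floor were not checked.

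A step was accepted where low values (up to 150 normalized counts) were whole multiples of it within 0.005 log2, which gave 100% whole in 4 samples against 19.7 to 35.5% by chance. In the other 5 the depth is unknown. Limits assume that every gene above the floor rule was listed. Named genes were the 5 highest and 3 lowest r for each member and the listed glycan genes. Members of other lists were named where a sentence needed them. Alternatives changed the floor, scaling, filter, trend and tissues. Some named-gene results are not reported here. Promoter sequences are RefSeq's.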

Additional observations from a re-analysis of the deposited data

Results flagged for a closer look

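The CD8 minus CD4 difference of Cmah in the intraepithelial compartment stood out because it ran against the other 3 tissues. It was at or below -1.25 there (CD8 below its limit of 5.05, CD4 at 6.30), while CD8 was higher by 1.08, 0.43 and 0.65 in lamina propria, mesenteric and peripheral nodes. The intraepithelial difference was not tested against the other 3 tissues together. Without the lamina propria pair, the fitted intraepithelial minus node value of the difference was -2.52, with the floor value in place of the CD8 level. A CD8 level nearer its limit would make it smaller in size. That fit holds 1 intraepithelial pair, so its error cannot include that of the intraepithelial values and is not given. The intraepithelial CD4 value stands for 20 counts. No group had the 4 samples needed to look for a sample far from the rest.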

How the results depend on the processing

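No paired analysis was possible because each group has 1 sample, which leaves no replicate numbers to pair, while the tissue term of the fit already pairs CD8 with CD4. For St6gal1, CD8 minus CD4 kept its sign in every setting: -1.01 at the limits, -0.92 without the intraepithelial pair and with housekeeping centring, -0.71 with median centring in its place, and -0.93 to -0.61 when 1 tissue pair was left out. For Cmah it was 0.73 without the intraepithelial pair and with housekeeping centring, and -0.30, -0.16 and -0.08 without the lamina propria, peripheral and mesenteric pairs (highest 0.72). Both 2-choice settings were chosen after the data were seen. Intraepithelial minus lamina propria was -0.58 for St6gal1 at the limits, -0.21 with all values raised to 6.30 and -1.93 with no filter (adjusted p = 0.0641) or without either node pair, which ended the call. For Cmah it passed at -2.60 (limits), -1.97 (raised), -2.99 (median centring) and -2.96 (at least 4 samples above the floor), and was -2.96 without either node pair. Gut minus node was -1.60, -1.16 and -2.60 for St6gal1 at the limits, raised and median-centred, and -3.24 to -1.31 without 1 pair, against -3.97 to -1.01 for Cmah. The mesenteric difference of Cmah became 0 with housekeeping centring, and those without 1 pair were -0.34 for St6gal1 and -0.01 for Cmah. The added gut term turned to -0.14 for St6gal1 at the limits (0.02 to 0.94 without 1 pair). For Cmah it was 0 with raised values and -2.52 to 0.54 without 1 pair, positive without the intraepithelial one. Called genes for CD8 minus CD4 were 36 with raised values, 14 with no filter and 21 to 69 without 1 pair, in place of 64. For intraepithelial minus lamina propria they were 50 with no filter and 26 to 55 without 1 pair, in place of 96. For gut minus node they were 48 to 136 without 1 pair, in place of 125. For these counts and signs the cause was not tested, apart from the smaller number of samples or genes. Median centring moved the share of higher calls to 60.6% from 37.5% (CD8 minus CD4) and to 28.9% from 54.4% (gut minus node). Counts, where known, limit St6gal1 and Cmah in intraepithelial cells to fewer than 20, or 20 for Cmah in CD4.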
